A study of Mus musculus with 24 samples.

Results

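Ketone bodies are the fuel that the liver makes from fatty acids during fasting, and 3 genes of their synthesis and release, Bdh1, Acat1 and Slc16a6, were followed here in mouse liver. The members were all probe sets for which the platform annotation lists exactly 1 gene symbol that is one of these names. This gave 6 probe sets of 45101 on the array: 2 for Bdh1, 3 for Acat1 and 1 for Slc16a6. No probe set listed a member beside another symbol. The mice were male C57BL6J, 6 to a group. The LF group ate low-fat food, the HF group ate food with 45% fat, and the HF+P group ate the HF food with 5% propagule powder (aerial tubers of Japanese yam). All groups were first acclimated on the low-fat food, then fed for 4 weeks and fasted for 16 h before the liver was taken, so every group was measured in the fasted state. The labels give no age. Liver RNA was hybridised on Affymetrix 3' arrays, 1 per mouse. As bulk tissue was measured, fewer cells of a type and less RNA per cell cannot be told apart.

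In ketogenesis, mitochondria of hepatocytes condense acetyl-CoA from fatty acid oxidation to acetoacetyl-CoA and pass it through HMG-CoA to acetoacetate. Acat1 encodes the mitochondrial acetoacetyl-CoA thiolase, which joins or splits acetoacetyl-CoA and also acts at the end of isoleucine breakdown. Bdh1 encodes the 3-hydroxybutyrate dehydrogenase of the inner mitochondrial membrane, which interconverts acetoacetate and 3-hydroxybutyrate, and Slc16a6 encodes a monocarboxylate transporter through which hepatocytes release ketone bodies. Fasting raises ketogenesis through low insulin and the fatty acid receptor PPAR-alpha.

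RefSeq (GRCm38.p6) lists 2 starts of Bdh1, and the 250 bases before each are shown because the Bdh1 probe sets, which name the gene and not a transcript, were the members with the widest spread between mice. Both lie on the plus strand of chromosome 16, at chr16:31422047-31422296 and chr16:31428503-31428752, and CG pairs are in capitals.
Bdh1 start 1: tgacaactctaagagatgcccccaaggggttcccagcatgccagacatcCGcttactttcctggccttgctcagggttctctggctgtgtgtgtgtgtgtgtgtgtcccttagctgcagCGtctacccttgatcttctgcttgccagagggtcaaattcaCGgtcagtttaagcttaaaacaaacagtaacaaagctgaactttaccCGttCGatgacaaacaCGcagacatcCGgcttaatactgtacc
Bdh1 start 2: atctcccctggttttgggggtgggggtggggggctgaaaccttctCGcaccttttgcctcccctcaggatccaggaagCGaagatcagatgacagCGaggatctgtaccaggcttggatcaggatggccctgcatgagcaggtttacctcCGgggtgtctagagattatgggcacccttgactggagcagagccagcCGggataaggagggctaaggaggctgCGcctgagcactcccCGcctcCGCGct
The first holds 7 CG pairs and 49.6% G or C, and the second holds 9 CG pairs and 60.8%. Over the 32851 promoters of the table the medians were 6 CG pairs and 52.4%. Of 7 motifs searched on both strands, none stood in either stretch. The nuclear receptor core motif AGGTCA stood in 14% of all promoters, a looser direct repeat of it, spaced by 1 base and overlapping it in some forms, in 0.338%, the cAMP response core TGACG in 17.8%, the forkhead motif TGTTTAC in 3.17%, the E-box CACGTG in 6.02%, CCAAT in 33.8% and GGGCGG in 32.7%. A missing match says only that these letters are not in these 250 bases.

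The log base of the deposited values is not given, and they were handled as log2. For most probe sets they differ only from the fifth or sixth decimal on. Levels of the members are therefore given below as deviations from a group mean in millionths of that unit. The HF arrays were processed once with the LF arrays and once with the HF+P arrays, and each comparison stays within its own value set. Sizes are standardized differences, the difference of group means in pooled within-group SDs with Hedges' correction and a 95% interval. They are not fold changes. Column medians were 33.6 millionths higher in HF than in LF and 1.27 millionths lower in HF+P than in HF, while the median probe set had a within-group SD of 3.75 millionths in LF. Of 10 hepatocyte marker genes, 10 had a probe set above the array's 90th percentile, against 0 of 5 skeletal muscle, 0 of 3 pancreatic acinar, 0 of 3 fat cell, 0 of 5 bile duct and 0 of 5 lymphocyte marker genes, 6 of 8 Kupffer cell, 3 of 6 endothelial, 2 of 6 stellate and 1 of 2 red blood cell marker genes.

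High-fat feeding against low-fat feeding came first. None of the 6 member probe sets passed the test between HF and LF (limma, Benjamini-Hochberg adjusted p between 0.822 and 0.965), where 0.671% of all probe sets passed, 0.269% as higher and 0.402% as lower. At an unadjusted p under 0.05 the count was also 0, against 12.9% of all probe sets. The groups overlapped in every member, and 1.57% of all probe sets had groups that did not. The 3 Acat1 probe sets had higher and the Bdh1 and Slc16a6 probe sets lower means in HF, 3 lower of 6, where 49.2% of all probe sets were lower. The median standardized difference of the members was 0.10, beside 0.015 over all probe sets.

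The brighter Bdh1 probe set, 1452257_at, had a deposited mean of 12.0292 in both groups. Around the LF mean, the LF mice ran from -266 to 518 millionths with a median of -80.0, and the HF mice from -215 to 128 with a median of -21.3. The HF mice all lay within the LF range, whose upper end is LF mouse 8. The difference of means was -24.6 millionths, a standardized difference of -0.10 (95% interval -1.14 to 0.947, n = 6 per group; limma, adjusted p = 0.965).

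The other Bdh1 probe set, 1426959_at, gave deposited means of 9.0555 ± 0.000898 in LF and 9.0552 ± 0.000594 in HF (SD, n = 6 per group). LF mice lay between -831 and 1682 millionths of the LF mean with a median of -167, and HF mice between -1345 and 261 with a median of -69.9. LF mouse 8 was again the highest and HF mouse 5 the lowest, and the other HF mice lay inside the LF range. The standardized difference was -0.38 (-1.43 to 0.687; limma, adjusted p = 0.829). Without LF mouse 8 the values of both Bdh1 probe sets had the opposite sign, 0.50 for 1452257_at and 0.041 for 1426959_at, and neither passed (adjusted p = 0.762 and 0.987). For 1452257_at the sign also turned without HF mouse 5 (0.055; limma, adjusted p = 0.982).

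Slc16a6, read by 1417884_at, had the same pair of extreme mice. LF values ran from -19.4 to 35.6 millionths around a median of -4.54, with mouse 8 highest, and HF values from -20.5 to 2.77 around a median of -5.96, with mouse 5 lowest. HF mice were packed more closely, with an SD of 8.08 millionths against 21.0 in LF, and the difference in spread was not tested. The standardized difference was -0.37 (-1.42 to 0.696; limma, adjusted p = 0.835), and 0.067 without LF mouse 8.

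Acat1 values hardly moved in the deposited scale. For 1424182_at, LF mice lay between -20.7 (mouse 3) and 30.6 millionths (mouse 4), and HF mice between -3.02 and 10.8. The HF mice sat inside the LF range, and the standardized difference was 0.39 (-0.676 to 1.44; limma, adjusted p = 0.822). The suffix of 1451271_a_at marks, in Affymetrix naming, a probe set common to several transcripts of one gene.

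For 1451271_a_at the LF mice spanned -0.82 to 1.15 and the HF mice -0.44 to 1.24 millionths (standardized difference 0.31, -0.750 to 1.36; adjusted p = 0.903). For 1424183_at, the brightest of the Acat1 probe sets in these data with a deposited mean of 12.9939, LF mice spanned -0.26 to 0.16 and HF mice 0.028 to 0.11 millionths. The standardized difference was 0.65 (-0.443 to 1.72; adjusted p = 0.959). The direction of Acat1 depends on the scaling: with each column centred on its median the 3 probe sets (1424182_at, 1451271_a_at and 1424183_at) had values of -2.12, -2.71 and -2.76, Slc16a6 had -2.13, and these 4 passed as lower in HF. That setting subtracts the shift of 33.6 millionths, which exceeds each Acat1 difference, and calls 42369 of 45037 probe sets.

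**Figure D1:**
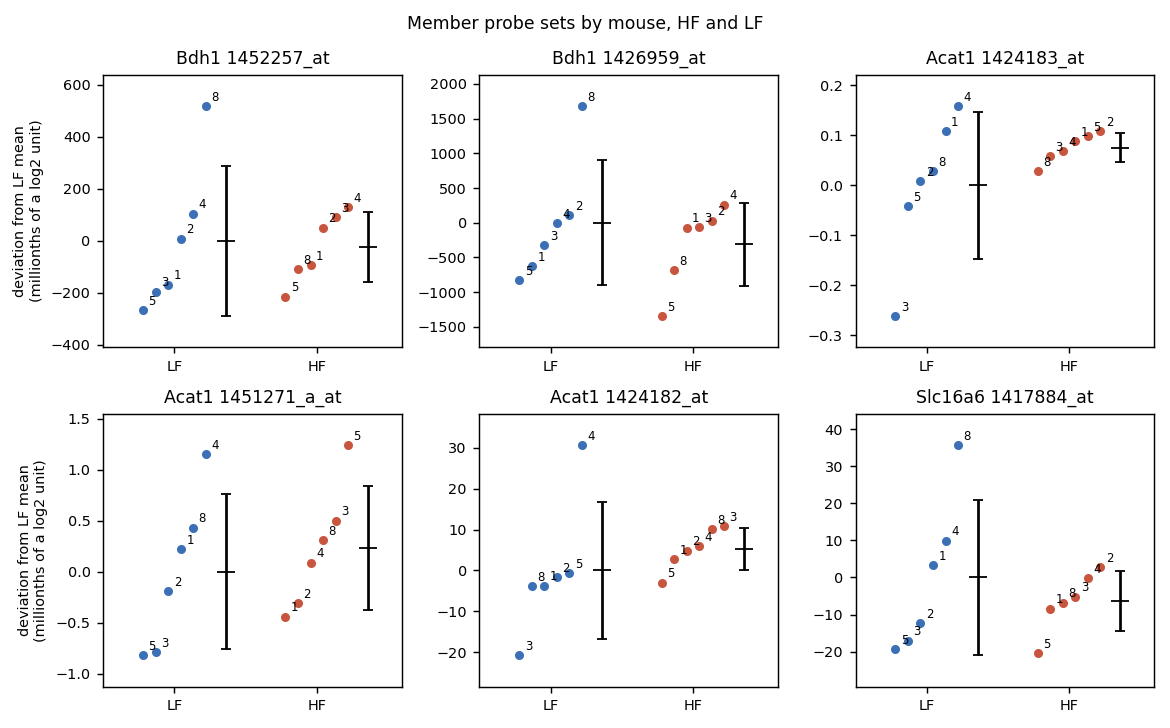
Each panel shows 1 member probe set; points are mice (numbered as in the labels) on LF or HF, the vertical axis is the deviation from the LF mean in millionths of a log2 unit with its own range per panel, and bars give the mean ± SD of 6 mice. LF mouse 8 stands highest in both Bdh1 panels (518 and 1682) and in Slc16a6 (35.6), and the groups overlap in every panel.

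The effect of the propagules was read within the second value set. All 6 member probe sets had lower means in HF+P than in HF and 0 passed the test (limma, Benjamini-Hochberg adjusted p between 0.728 and 0.925). Over the whole array 50.7% of probe sets were lower and 0.00222% passed, which is 1 probe set and not a member. At an unadjusted p under 0.05 the count of members was 0, against 6.94% of all probe sets. Groups overlapped in all 6, and did not in 0.355% of all probe sets. The members had a median standardized difference of -0.58, beside -0.0095 over all probe sets. Probe sets of 1 gene share their target, so the 6 directions come from 3 genes.

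Bdh1 1452257_at had HF mice between -42.9 and 35.3 millionths of the HF mean (median -2.21) and HF+P mice between -53.9 and 38.4 (median -25.0). HF+P mouse 3 was the highest of all 12 and 2 HF+P mice stood under the HF range. A standardized difference of -0.63 was found (-1.70 to 0.463; limma, adjusted p = 0.849). For 1426959_at the HF mice spanned -316 to 199 (median 67.2) and the HF+P mice -222 to 235 (median -136). Mouse 3 was again the highest HF+P mouse, 0 HF+P mice lay below the HF range, and the standardized difference was -0.42 (-1.47 to 0.650; adjusted p = 0.902).

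Slc16a6 ranged from -23.6 to 16.9 millionths in HF (median 0.39) and from -55.9 to 28.3 in HF+P (median -9.70). The HF+P mice spread to both sides of the HF mice, with 2 below and 1 above all of them, and mouse 3 at the top as for Bdh1. The standardized difference was -0.53 (-1.59 to 0.550; limma, adjusted p = 0.875).

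Acat1 gave the members' widest separation. In 1424183_at the HF mice lay between -0.098 and 0.032 millionths of the HF mean (median 0.017) and the HF+P mice between -0.618 and -0.098 (median -0.32). Of the 6 HF+P mice, 5 were under the whole HF range, and the other, mouse 1, had the same deposited value as HF mouse 4. The difference in pooled SDs was -2.0 (-3.32 to -0.613), with an exact two-sided permutation p of 0.00433 over 924 assignments of the 12 mice, of which the smallest possible is 0.00216. That p is unadjusted; the other 5 member probe sets had exact permutation p values up to 0.433.

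In the limma fit the same probe set did not pass (adjusted p = 0.887). The fit draws each SD toward a common value, and it raised the SD of this probe set from 0.153 to 0.608 millionths. Without that moderation, a setting chosen after the data were seen, it did not pass either (limma without moderation, adjusted p = 0.556). The difference itself is -0.33 millionths, below the 1.27 by which the column medians differ, and the 6 HF mice have only 5 distinct deposited values. With median centring the value was 0.56, so the direction depends on the scaling.

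For 1424182_at the HF mice lay between -9.02 and 15.3 millionths (median -4.77) and the HF+P mice between -56.9 and 0.69 (median -17.5), with 3 HF+P mice under the HF range. In pooled SDs this was -1.08 (-2.21 to 0.083; limma, adjusted p = 0.728). After quantile normalisation the values of all 3 Acat1 probe sets tied on the 12 arrays, so that setting gives them no direction. For 1451271_a_at the ranges were -0.79 to 1.06 in HF and -0.97 to 0.54 in HF+P, with a standardized difference of -0.50 (-1.56 to 0.577; adjusted p = 0.925) and 0.55 after median centring. Mouse order differed between the Acat1 probe sets: HF+P mouse 4 was the lowest in 1424183_at and 1451271_a_at and the highest in 1424182_at.

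**Figure D2:**
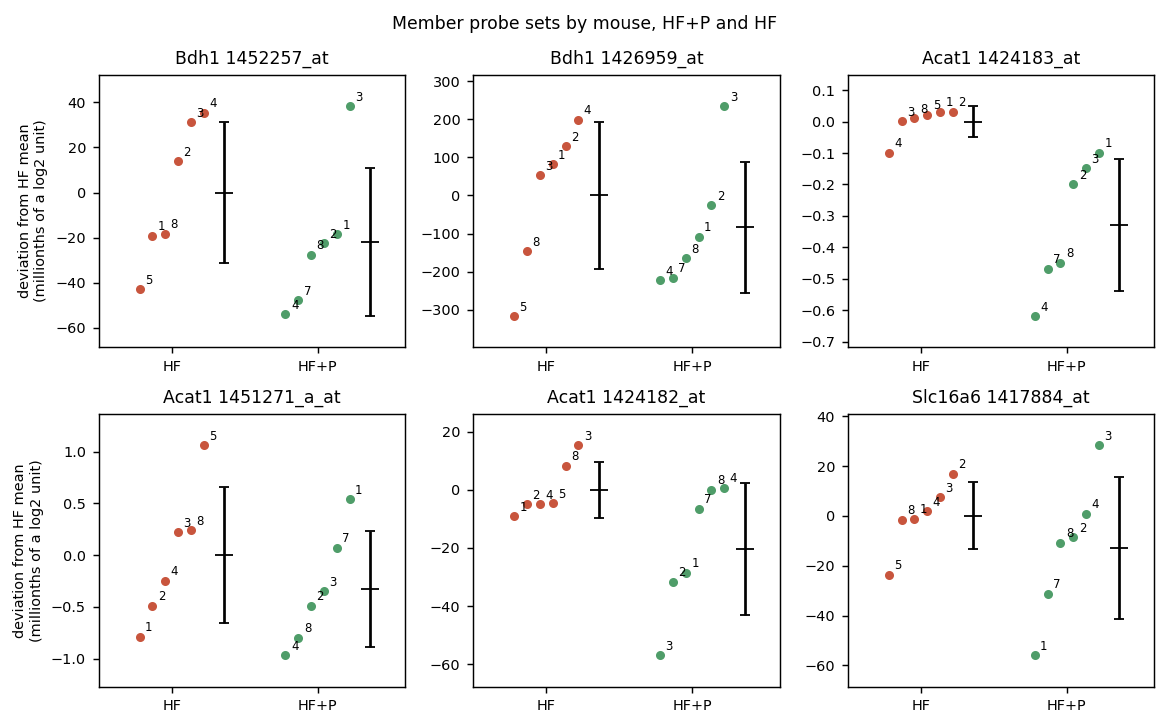
Mice on HF and HF+P in the second value set, 1 panel per member probe set; the vertical axis is the deviation from the HF mean in millionths of a log2 unit, and bars give the mean ± SD of 6 mice. Acat1 1424183_at has 5 HF+P mice under the HF range, down to -0.618, and HF+P mouse 3 tops both Bdh1 panels and Slc16a6.

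**Figure D3:**
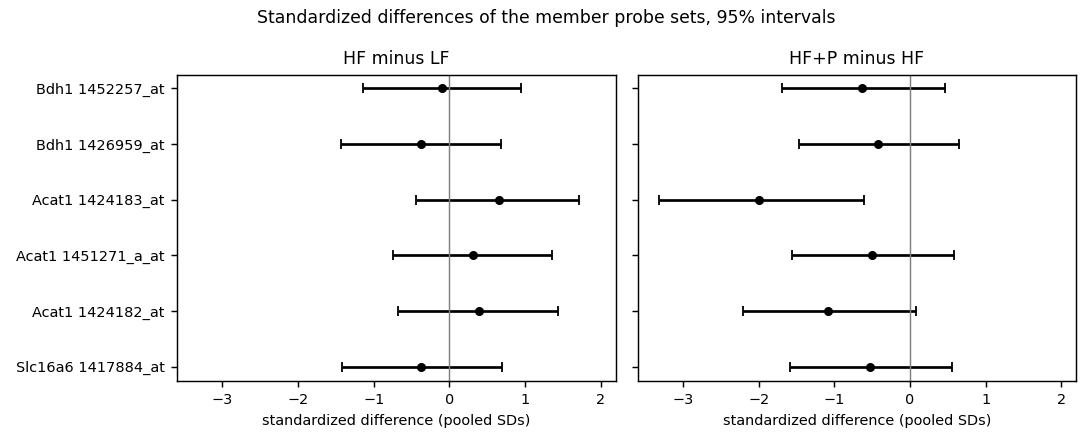
Standardized differences (points, in pooled SDs) with 95% intervals (bars, 6 mice per group) for HF minus LF on the left and HF+P minus HF on the right. Every interval on the left spans 0; on the right all points lie below 0 and the interval of Acat1 1424183_at, -3.32 to -0.613, does not reach it.

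The members differed in how far their values move between mice. In LF, the SD of Bdh1 1426959_at (898 millionths) was larger than that of 98.9% of probe sets and that of 1452257_at (289) larger than that of 97.8%. Slc16a6 stood above 88.3% with 21.0 millionths. Of the Acat1 probe sets, 1424182_at stood above 86.1% with 16.7, while 1451271_a_at (0.76) and 1424183_at (0.15) stood above 6.29% and 0.224%. In LF the 3 Acat1 probe sets thus stood far apart in spread although they name the same gene. The place of 1424182_at varied by group: it stood above 58.8% in HF of that set, 76.1% in HF of the second set and 89.2% in HF+P.

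The HF arrays, which are in both value sets, show how much of each pattern came back after separate processing. Over these 6 arrays the deviations of Bdh1 correlated at r = 0.995 (1452257_at) and 0.994 (1426959_at), of Acat1 1451271_a_at at 0.988 and of Slc16a6 at 0.940, where the median probe set had 0.952. Acat1 1424182_at reached 0.758, and 1424183_at, the one that separated HF+P from HF best, had 0.283, lower than all but 1.62% of probe sets. These are the same arrays and are given as a description, with no test. The scale also changed: the HF SD of Bdh1 1452257_at was 4.28 times larger in the first value set than in the second, and that of Slc16a6 was 0.600 of its second value.

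**Figure D4:**
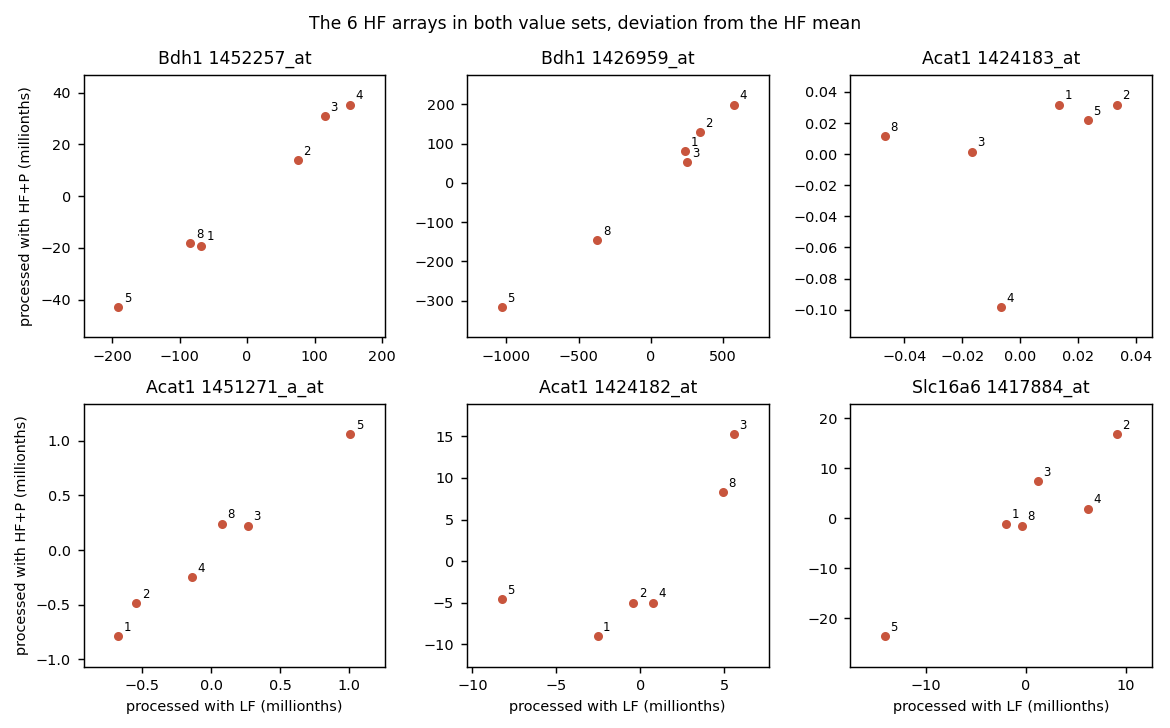
The 6 HF arrays as processed with LF (horizontal) and with HF+P (vertical), each as deviation from the HF mean in millionths of a log2 unit, 1 panel per member probe set and points numbered by mouse. Bdh1 falls on a line (r = 0.995 and 0.994), and Acat1 1424183_at does not (r = 0.283).

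Between members, the values of the 2 Bdh1 probe sets, and less firmly those of Bdh1 and Slc16a6, went together over mice. In the LF and HF set, the 2 Bdh1 probe sets had Pearson r = 0.930 and Spearman rho = 0.902 over 12 mice (permutation p = 1e-04, the smallest written, and 0.00023; adjusted p = 0.00165 and 0.00645 over 30 relations), and r = 0.799 without the 2 mice farthest out, LF 8 and LF 5. Bdh1 1452257_at and Slc16a6 had r = 0.884 and rho = 0.776 (permutation p = 0.00097 and 0.00407; adjusted p = 0.0097 and 0.0407). Within the LF mice alone r was 0.904 and within the HF mice 0.853. It was 0.702 without LF mouse 8 and 0.629 without LF 8 and LF 5. The other Bdh1 probe set, 1426959_at, and Slc16a6 had r = 0.829 (permutation adjusted p = 0.0215) and rho = 0.636 (0.149, which did not pass). Without LF 8 and HF 5 that r was 0.377, so the relation rests on those mice.

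In the HF and HF+P set, which shares the HF arrays, the Bdh1 probe sets had r = 0.896 and rho = 0.881 (permutation p = 0.00011 and 0.00043; adjusted p = 0.00165 and 0.00645), and r = 0.808 without HF+P 3 and HF 4. Bdh1 1452257_at and Slc16a6 had r = 0.597 and rho = 0.657 there (permutation p = 0.0385 and 0.0239; adjusted p = 0.144 and 0.143), with 0.754 within HF and 0.502 within HF+P, and 0.454 without the same 2 mice. For 1426959_at and Slc16a6 r was 0.644 and rho 0.706 (permutation adjusted p = 0.0954 and 0.0924). Neither relation to Slc16a6 passed the correction. Between the Bdh1 and the Acat1 probe sets r lay between -0.376 and 0.520 over both sets, and none passed.

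The Acat1 probe sets, in turn, were only loosely tied to each other. In the LF and HF set r was 0.627, 0.720 and 0.551 for the 3 pairs (permutation p = 0.0213, 0.0223 and 0.0602; adjusted p = 0.0954, 0.0954 and 0.201). Within HF alone the same pairs had negative values, -0.119, -0.755 and -0.297, so these relations did not hold within the HF mice. In the second set r was 0.465, -0.0019 and 0.073.

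**Figure D5:**
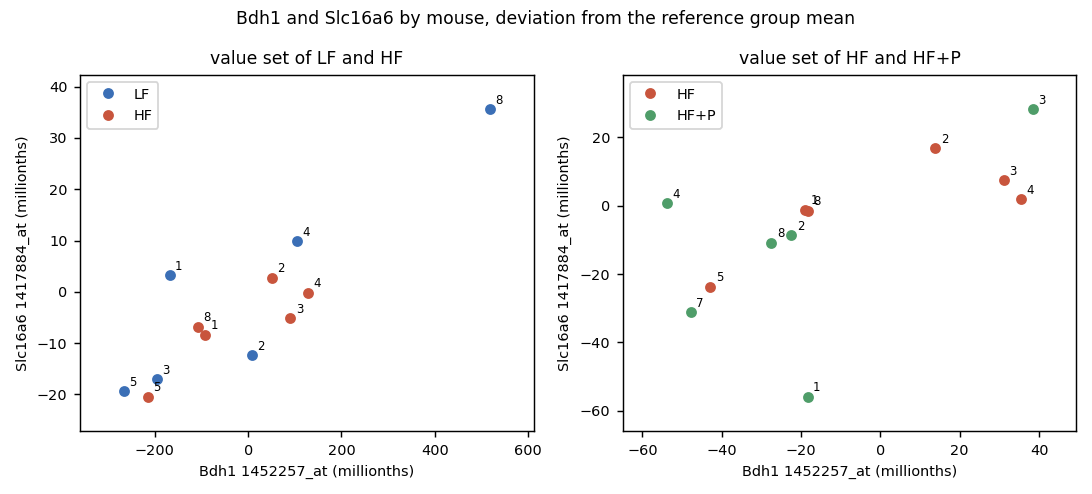
Slc16a6 (vertical) against Bdh1 1452257_at (horizontal) in the LF and HF value set (left) and the HF and HF+P value set (right), in millionths of a log2 unit from the LF or HF mean, with mice numbered. On the left LF mouse 8 lies far out at 518 and 35.6, and on the right HF+P mouse 3 is the highest for both.

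Among the named probe sets of genes other than Bdh1, Slc16a6 was the 4th most like Bdh1 1452257_at over the 12 LF and HF mice. The 3 genes ahead of it were Jakmip1 (r = 0.909), Nipsnap3b (0.897) and Decr1 (0.885 in 1449443_at), the mitochondrial dienoyl-CoA reductase of fatty acid oxidation. Without LF mouse 8 these were 0.885, 0.727 and 0.701. In the HF and HF+P set the same genes had r = -0.184, 0.456 and 0.882. That set shares the HF arrays, so the high r of Decr1 there is not from wholly separate mice. Those most like Slc16a6 were Klhl36 (0.928), Tmem143 (0.912) and Pbx4 (0.909), and -0.164, 0.426 and 0.0077 in the other set. For Acat1 1424183_at they were Atp2a1 (0.947), Ppil3 (0.892) and Crtc1 (0.890), with -0.224, -0.096 and -0.133 in the other set. These values are descriptions over the 12 arrays of a set, or over those without LF mouse 8, and carry no test. The genes were picked as the highest of all named probe sets of other genes, so their r in the first set is high by choice.

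LF mouse 8, the highest LF mouse in both Bdh1 probe sets and Slc16a6, was highest in 17.4% of all probe sets. It was highest in 12 of 27 probe sets of the mitochondrial fatty acid supply list (carnitine shuttle and beta-oxidation), in 7 of 13 thiolase probe sets and in 9 of 33 of regulators of ketogenesis. In the other lists it was highest in 0 of 10 probe sets of the other ketone body enzymes, 3 of 27 of monocarboxylate transporters, 2 of 30 of ketogenic amino acid breakdown and 0 of 5 of Hmgcs1. HF mouse 5, lowest in 4 of the 6 members, was lowest in 16.5% of all probe sets, in 9 of 27 of fatty acid supply, in 7 of 13 of the thiolases and in 6 of 30 of ketogenic amino acid breakdown. It was lowest in 1 of 10 probe sets of the other ketone body enzymes, 2 of 27 of transporters, 5 of 33 of regulators and 0 of 5 of Hmgcs1. Hadhb belongs to both lists. The part of these mice's state in the members' values was not tested.

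The neighbouring steps of ketone metabolism also gave few calls. Of 10 probe sets of 5 other ketone body enzymes 0 passed in HF against LF (median standardized difference 0.27). Aacs, the cytosolic acetoacetyl-CoA synthetase that turns acetoacetate back into acetyl units for lipid synthesis, came nearest with 2.31 in 1456081_a_at (limma, adjusted p = 0.0746). It passed without dim probe sets (0.0458), after quantile normalisation (0.0135), after median centring (0.000738) and without HF mouse 1 (0.0376), and in the other fits that left out 1 mouse it did not. The other Aacs probe sets had 2.01 in 1423797_at (limma, adjusted p = 0.112) and -0.034 in 1451116_at (0.990). Bdh2, a cytosolic dehydrogenase, had 0.999 (0.459). Among 27 probe sets of 15 monocarboxylate transporters and their partners 0 passed (median 0.23). Slc16a1, the broad lactate and ketone body carrier MCT1, had -2.56 in 1415802_at (adjusted p = 0.0565) and 0.29 in its other probe set, 1446274_at (0.879). Slc16a10 had -1.80 in 1440569_at (0.156), and -0.18, -0.11 and -0.25 in 1434592_at, 1436368_at and 1453675_at (0.931, 0.962 and 0.900). With 1 probe set per gene and adjustment over 18193 genes, where 1.82% of genes passed, Slc16a1 was called lower in HF (limma, adjusted p = 0.0389). Whether Slc16a1 and Slc16a6 responded differently was not tested.

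Of 27 probe sets of 16 fatty acid supply genes 0 passed (median -0.29). Etfdh, which passes electrons from beta-oxidation to ubiquinone, had -2.53 in 1451084_at (limma, adjusted p = 0.0590, and 0.0406 with 1 probe set per gene). Its other probe set, 1458152_at, had -0.68 (0.641). Echs1, a hydratase of beta-oxidation, had 1.88 (0.207). Of 33 probe sets of 17 regulators 0 passed (median -0.076). Acacb, whose product malonyl-CoA blocks fatty acid entry into mitochondria, had -2.53 in 1427052_at (limma, adjusted p = 0.0576) and -0.080 in 1445754_at (0.992). Pdk4, the pyruvate dehydrogenase kinase of fasting, had -2.38 (0.0688). With 1 probe set per gene the limma adjusted p was 0.0402 for Acacb 1427052_at and 0.0478 for Pdk4. Among 13 thiolase probe sets (median -0.0084) and 30 probe sets of ketogenic amino acid breakdown (median 0.37) 0 passed. The lowest p values there belonged to Acaa1a (1.26; adjusted p = 0.331) and Acaa1b (-0.90; 0.523), which are close copies, and to Hgd (-1.99; 0.118) and Auh (-1.90; 0.164). Another Auh probe set had the opposite sign, 1.74 (0.168).

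In the fit over all probe sets, the calls among these lists were those of the cytosolic counterpart of the pathway. Hmgcs1, the HMG-CoA synthase that feeds sterol synthesis, had 3 of 5 probe sets higher in HF, with 2.89 in 1433444_at (limma, adjusted p = 0.0370) and a difference of 11030 millionths. This call is close to the threshold: 1433444_at passed in 2 of 12 fits that each left out 1 mouse, with standardized differences between 2.67 and 4.15, and did not pass without variance moderation (limma, adjusted p = 0.0565). The members' differences in the same comparison were at most 313 millionths in size, with standardized differences between -0.38 and 0.65. As the spread differs widely between probe sets, differences in millionths are not on a common scale.

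In HF+P against HF 0 probe sets passed in any of these 7 lists, and with 1 probe set per gene 0.0055% of all genes passed. Medians were -0.21 for the other ketone body enzymes, -0.33 for thiolases, -0.0023 for monocarboxylate transporters, -0.067 for fatty acid supply, 0.22 for ketogenic amino acid breakdown, 0.26 for regulators and -0.053 for Hmgcs1. For each list the 2 genes with its lowest p values are given, or 1 where it holds only 1 gene. Dld, a subunit of mitochondrial dehydrogenase complexes, had 1.84 in 1423159_at (limma, adjusted p = 0.532) and the opposite sign, -1.75, in 1433263_at (0.552), so that its probe sets disagree. Acadsb had 1.62 (0.583), Decr1 -1.69 in 1419367_at (0.573), Slc16a9 -1.30 (0.672), Slc16a3 -1.29 (0.681) and Pdk4 1.30 (0.673). The Decr1 probe set named above for its likeness to Bdh1, 1449443_at, had -0.31 (0.937). Cpt1a, the entry enzyme for fatty acids into mitochondria, had -1.16 in 1460409_at (0.712), Insr -0.99 in 1421380_at (0.757) and Hadhb 0.70 in 1437172_x_at (0.829). Oxct1, the ketone body using transferase of other tissues, had -0.93 in 1428140_at (0.773). Aacs had -0.89 (0.780), Acaa1a -0.83 (0.807) and Hmgcs1 -0.20 (0.964). Some other probe sets had the opposite sign: Cpt1a 0.44 in 1438156_x_at (0.895), Insr 0.42 in 1450225_at (0.911) and Hadhb -0.067 in 1426522_at (0.992). So did Oxct1, with 0.17 in 1436750_a_at (0.973) and 0.11 in 1455804_x_at (0.984). The remaining probe sets of Cpt1a, Insr, Hadhb and Oxct1 had the sign first given.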

How the data were processed

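Levels were taken from the value table deposited by the authors, with 24 columns for 18 mice. Per the labels, the 6 HF arrays are in both value sets. R 2.7.2 is named in the submitters' processing notes; how probes were summarised and scaled, and the log base, is not given in these sources. The deposited values, 5.36 to 15.0, were handled as log2 values. Per mouse there is 1 array, and the number of arrays limits the precision. Each comparison was fitted with limma 3.58.1 (lmFit, eBayes; R 4.3.3), two-sided, on 45037 probe sets without 64 controls, with Benjamini-Hochberg adjustment and a threshold of 0.05. Tested on simulated data for HF against LF over these probe sets, the fit recovered 38 of 50 changes of 4 SDs. It recovered 5 of 50 of 2 SDs and 0 of 50 of 1 SD. The simulated noise was normal and independent between probe sets, with no shift of the column medians, unlike the deposited values. Not passing therefore does not show that a member was unchanged. The members and the gene lists were chosen with earlier results of these data known. Named genes were the members, per list up to 3 genes past the threshold or else the 2 lowest p values, and the 3 most alike per member. Mice were taken as separate animals from their labels; p-values measure only the spread between these arrays. Promoters came from RefSeq for Bdh1.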

Additional observations from a re-analysis of the deposited data

Results flagged for a closer look

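Of 24 groups of 6 values looked at, in 2 a single mouse stood apart by the ratio of its gap to the group's range (95% critical value 0.625); chance gives about 1 in 20. LF mouse 8 stood above the other LF mice in Bdh1 1426959_at (ratio 0.625). HF mouse 4 stood below the other HF mice in Acat1 1424183_at in the HF and HF+P set (ratio 0.769), in a group whose values span 0.13 millionths.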

How the results depend on the processing

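The number of arrays limits the precision, and the deposited spread of many probe sets is below the shifts of the column medians. Counts of all probe sets past the threshold in HF against LF (302) were 42369 with median centring (322 higher, 42047 lower), 7305 with quantile normalisation (219 higher, 7086 lower), 861 at a threshold of 0.10 and 568 without dim probe sets; leaving out 1 mouse gave 131 (without LF 5) to 325 (without HF 5). In HF+P against HF (1) they were 2 with median centring and 0 to 2 on leaving out 1 mouse. Of the members, 4 passed as lower in HF with median centring, and 1 had an unadjusted exact permutation p under 0.05 in HF+P against HF; leaving out any mouse gave 0 calls of members in both comparisons. The cause was not tested. Quantile normalisation left 9.86% and 9.85% of probe sets tied on all 12 arrays of a comparison; these were left out of that fit, among them Bdh1 1452257_at, Acat1 1424183_at and 1451271_a_at in both comparisons, Acat1 1424182_at in HF+P against HF, and Etfdh and Echs1 in HF against LF. Leaving out tied probe sets was chosen after seeing the data.

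Directions in HF against LF reversed with median centring for Acat1 1424182_at (-2.12), 1424183_at (-2.76) and 1451271_a_at (-2.71), Acaa1a (-2.27), Bdh2 (-0.0285) and Echs1 (-2.69), and with quantile normalisation for Acaa1a (-0.33). In HF+P against HF they reversed with median centring for Acat1 1424183_at (0.562) and 1451271_a_at (0.553), Acaa1a (0.424) and Oxct1 (0.0454), and with quantile normalisation for Bdh1 1426959_at (0.125), Acaa1a (1.76), Acadsb (-0.533), Hmgcs1 1433446_at (0.401) and Slc16a3 (0.187). Leaving out 1 mouse gave -0.59 to 0.0413 for Bdh1 1426959_at, -0.328 to 0.504 for Bdh1 1452257_at and -0.617 to 0.0666 for Slc16a6 in HF against LF, where Acat1 kept its sign but ranged from 0.0938 (without LF 3) to 1.55 (without LF 4) in 1424182_at, from 0.0438 (without HF 5) to 0.712 (without LF 4) in 1451271_a_at and from 0.358 (without LF 3) to 1.02 (without LF 4) in 1424183_at, and -0.723 to 0.0968 for Hmgcs1 1433446_at in HF+P against HF. In that comparison the members kept their sign, with ranges of -1.21 (without HF+P 3) to -0.435 (without HF 4) for Bdh1 1452257_at, -0.872 (without HF+P 3) to -0.223 (without HF 4) for 1426959_at, -1.06 (without HF+P 3) to -0.223 (without HF+P 1) for Slc16a6, -0.827 (without HF+P 1) to -0.212 (without HF 5) for Acat1 1451271_a_at, -1.35 to -0.909 for 1424182_at and -2.52 to -1.81 for 1424183_at.

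The labels number the mice of each group and do not say whether same-numbered mice share anything else. The main fits leave the number out. Deviations of same-numbered mice correlated at -0.13 to 0.0976 in HF against LF, where 4 of 6 pairs matched best. In HF+P against HF they correlated at 0.0338 to 0.209, and 2 of 5 pairs did. What the numbers stand for was not tested. With the replicate block 246 probe sets passed in HF against LF and 1 in HF+P against HF, and 0 members in either. With it Hmgcs1 1433444_at did not pass (2.78; limma, adjusted p = 0.0814) and Aacs 1456081_a_at (4.27; 0.0370) and Slc16a1 1415802_at (-4.32; 0.0362) did. Sizes with the block are in residual SDs of that fit and not in pooled within-group SDs. They therefore cannot be set beside the sizes of the main fit.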
